A study of Mus musculus with 2 samples.

Results

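The regions described here are stretches of open chromatin in mouse CFU-E cells at promoters of long non-coding RNA (lncRNA) genes. By the GENCODE annotation they belong to no protein-coding gene, whereas RefSeq places a coding start near some of them, as given below. They were chosen by position: the midpoint of a merged region of the series list had to lie within 1 kb of an annotated start of a lincRNA, antisense, processed_transcript or bidirectional-promoter lncRNA gene and over 1 kb from every start of a protein-coding gene. Of 24394 regions in the series list, 526 met the rule. They are called lncRNA-only promoter regions below, and the regions of the same list with a midpoint within 1 kb of a protein-coding start (11354) or over 1 kb from any annotated start (12040 distal regions) stand beside them. Within the series list no measured value was used to choose them. A region enters that list only by passing a threshold on measured peak values. Among the genes that placed them, 309 regions belonged to a lincRNA gene, 119 to an antisense gene, 97 to a processed_transcript gene and 1 to a bidirectional-promoter gene.

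CFU-E cells are red cell progenitors that need erythropoietin to survive. Those studied here were primary cells of C57BL/6J mice, all adult males, 5 to 6 weeks old. ATAC-seq was run on 2 libraries of 50000 cells, numbered as biological replicates 1 and 2, from separate biosamples with 1 donor identifier. They form 1 group with no treatment and no contrast, so no test between conditions was possible. Among members of the ranked lists, the −log10 p values of matched records had a log2 ratio with a median of 0.13 and an SD over regions of 0.37 between the replicates (521 members), against 0.03 and 0.42 between parts of the pooled reads (526 members). Over all matched records the SDs were larger, 0.87 between the replicates and 0.95 between parts of the pooled reads. Members come from a list already thresholded on agreement between peak sets, so their smaller SD does not measure agreement over all records. Values of the replicates are given side by side, with no SD over the 2 libraries. An accessible promoter was found at 10 of 10 erythroid marker genes, 1 of 8 granulocyte and monocyte genes, 0 of 8 lymphocyte genes, 2 of 6 megakaryocyte genes and 0 of 4 mast cell genes, against 45.5% of all protein-coding genes.

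Long non-coding RNAs are transcribed by RNA polymerase II and spliced much like mRNAs, but are not thought to encode proteins. Some act as scaffolds or decoys in the nucleus, some silence genes in cis, and others serve mainly as precursors from which small nucleolar RNAs or microRNAs are cut. In ATAC-seq a transposase cuts DNA that nucleosomes leave free, as they do at active promoters of mRNA and lncRNA genes alike, and in red cell precursors the factors GATA1, TAL1 and KLF1 bind many such places.

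The highest folds stood at a family of near-identical promoters on chromosome 17. Fold is the authors' enrichment of a peak over the background of the peak caller, taken as the highest among the merged records of a region. BC002059 (chr17:16951207-16951680), Gm5165 (chr17:17234356-17235024) and Gm6712 (chr17:17294005-17294515) held ranks 1, 2 and 3. Aligned without gaps around the summit of BC002059, the 3 promoters differ at 7 of 120 positions, which are the capitals in the lines below. The stretches lie at chr17:16951397-16951516, plus strand, chr17:17234714-17234833, plus strand, and chr17:17294278-17294397, plus strand of mm10, and each is read 5′ to 3′ along the gene.
BC002059: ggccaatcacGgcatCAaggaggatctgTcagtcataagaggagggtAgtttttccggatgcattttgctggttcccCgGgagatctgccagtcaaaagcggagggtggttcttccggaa
Gm5165: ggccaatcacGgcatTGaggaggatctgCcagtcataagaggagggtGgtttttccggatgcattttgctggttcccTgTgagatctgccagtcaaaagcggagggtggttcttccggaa
Gm6712: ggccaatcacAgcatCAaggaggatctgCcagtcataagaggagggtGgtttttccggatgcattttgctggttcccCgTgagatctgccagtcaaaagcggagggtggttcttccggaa
Against BC002059, Gm5165 has 114 and Gm6712 has 116 of the 120 bases in common, and all 3 hold 1 NFY match, the CCAAT-box consensus CCAATSR. BC002059 had a series fold of 19.8, with 15.9 in replicate 1 and 18.3 in replicate 2. Gm5165 had a series fold of 18.7, with 17.2 in replicate 1 and 16.9 in replicate 2. Gm6712 had a series fold of 18.6, with 15.5 in replicate 1 and 17.5 in replicate 2. The order of the 3 therefore differed between the replicates: Gm5165 was highest in replicate 1 and BC002059 in replicate 2. How reads were shared between such copies in the authors' alignment is not given in the sources used here, so the value of each single copy is uncertain. GENCODE types Gm5165 and Gm6712 as lincRNA genes, whereas RefSeq counts both as protein-coding.

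Dancr, which hosts a small nucleolar RNA and is known for holding progenitor cells undifferentiated, had the highest fold of the CpG-rich promoters. CpG-rich means over 50% G and C and a CpG observed over expected ratio over 0.6 in the 250 bp to each side of the summit. The window of 100 bp to each side of the Dancr summit (chr5:74092862-74093062, plus strand) is shown because it also is the strongest promoter with a KLF match (CCMCRCCC). Capitals mark 1 KLF match and 3 NFY matches, on either strand.
Dancr: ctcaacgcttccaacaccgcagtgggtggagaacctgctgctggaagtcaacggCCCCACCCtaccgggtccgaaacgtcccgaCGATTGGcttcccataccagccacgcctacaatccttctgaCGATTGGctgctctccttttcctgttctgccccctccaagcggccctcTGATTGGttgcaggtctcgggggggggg
The Dancr region (chr5:74092534-74093574) had a fold of 18.4 (17.3 in replicate 1, 17.2 in replicate 2). Its −log10 p of 257.3 was the second highest of the 526. After Dancr came D230017M19Rik, a lincRNA gene on chromosome 1, with a fold of 18.2 (17.4 in replicate 1, 15.7 in replicate 2).

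Gm20033, a processed_transcript gene, was next among regions in both replicate lists. Its nearest protein-coding start, 88.5 kb away, is that of Klf3, a repressor of the Krüppel-like family that is active in red cells. Its region (chr5:64714654-64715061) had a fold of 16.7 (16.7 in replicate 1, 14.8 in replicate 2). The window at its summit (chr5:64714789-64714989, minus strand) holds 2 KLF matches and 1 GATA match (WGATAR), in capitals, within a sequence that is not CpG-rich.
Gm20033: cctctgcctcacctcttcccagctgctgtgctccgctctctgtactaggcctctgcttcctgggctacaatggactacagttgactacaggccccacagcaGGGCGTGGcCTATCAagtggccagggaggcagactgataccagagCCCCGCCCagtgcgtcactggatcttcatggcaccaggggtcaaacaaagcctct
Below it stood E430024I08Rik beside the zinc finger gene Zfp825 (fold 16.4), Gm10010 (16.4), 5530601H04Rik on the X chromosome (16.4) and Gm10433 (16.2). Snhg15, a small nucleolar RNA host gene, followed at 16.2 (15.5 in replicate 1, 14.9 in replicate 2). The remaining members of the strongest 20 that were in both replicate lists were Gm48765, Gm26901, 1700113A16Rik near Mef2d, 5730405O15Rik near Usp9x, 2900076A07Rik, C030034I22Rik, Gm12059, Gm13274 and BB557941, with series folds between 15.1 and 15.8. Of these 20, 12 were CpG-rich, against 28.5% of all 526 members and 36.7% of all regions. Over 20 kb from any protein-coding start lay 15 of the 20. Of all 526 members, 181 had the nearest such start at 20 to 100 kb and 36 at over 100 kb.

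**Figure D1:**
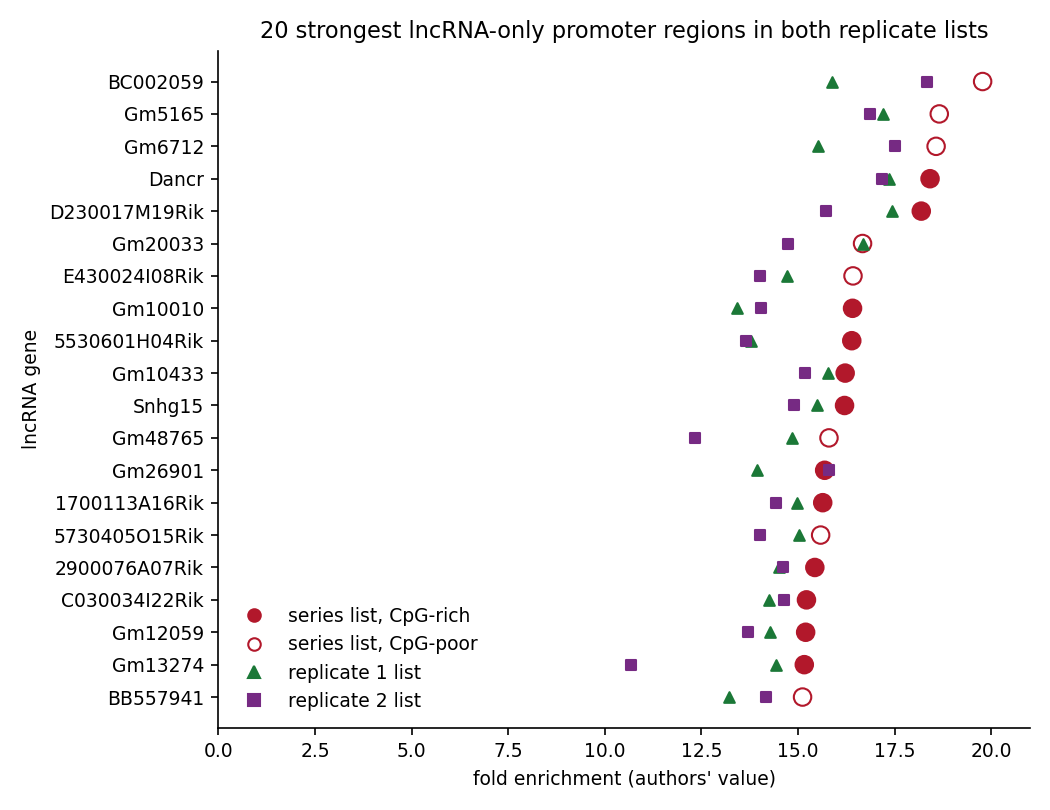
Fold enrichment (x axis, the authors' value) of the 20 strongest lncRNA-only promoter regions that were in both replicates' thresholded lists, with 1 row per gene, a circle for the series list (filled where CpG-rich), a triangle for replicate 1 and a square for replicate 2. The series folds run from 19.8 at BC002059 to 15.1 at BB557941, and the widest gap between replicates in the plot is at Gm13274, with 14.4 in replicate 1 and 10.7 in replicate 2.

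Gm13565, with a fold of 17.6 in the series list (chr2:62440902-62441564, −log10 p 184.6), ranked 6 by fold but was not in replicate 1's thresholded list. Replicate 1's less strict overlap list held it, with a fold of 15.5 and a −log10 p of 91.3, beside 16.6 and 90.8 in replicate 2. By p rather than fold, the leading regions were 1700012D14Rik near Eif4g2 (−log10 p 263.5, fold 14.1), Dancr (257.3), 1700028E10Rik (253.1, fold 12.1), Gm10433 (247.6) and A330094K24Rik (241.2). The widest were Gm49024 near Wapl (2240 bp), Gm12915 within Inpp5b (2002 bp), 4930412M03Rik within Rai1 (1822 bp), 1700028E10Rik (1791 bp) and Gm36445 (1778 bp). Of these 5, 4 were CpG-rich, against 28.5% of all members.

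The lncRNA-only promoters lay between protein-coding promoters and distal regions in fold. Their median fold was 7.26 (95% interval of the median 6.71 to 7.66, quartiles 4.99 and 10.2), against 9.46 (9.34 to 9.58) at protein-coding promoters and 6.52 (6.45 to 6.58) at distal regions. The 474 regions at the starts of other genes, such as pseudogenes and small RNA genes, had values close to theirs, with a median fold of 6.98 (6.68 to 7.41), 26.2% CpG-rich, 30.4% with a GATA match and 8.44% with a CTCF match. The intervals are exact order-statistic intervals over regions and cover counting error only, since regions of the same libraries are not replicates. The median fold in the less strict overlap list of replicate 1 was 7.11 for lncRNA-only promoters, 9.18 for protein-coding promoters and 6.32 for distal regions. In that of replicate 2 the medians were 7.02, 9.06 and 6.18 in the same order of classes, so both replicates placed the lncRNA-only promoters between protein-coding promoters and distal regions. Of the 526 regions, 136 had a fold of 10 or more and 62 a fold under 4. Over all regions the quartiles of fold were 5.41 and 10.66. A fold of 10 lay between percentiles 74 and 75 of lncRNA-only promoters, 54 and 55 of protein-coding promoters, and 85 and 86 of distal regions. A fold of 4 lay between percentiles 11 and 12, 7 and 8, and 9 and 10 in that order. The median width was 560 bp at lncRNA-only promoters, 824 bp at protein-coding promoters and 441 bp at distal regions.

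**Figure D2:**
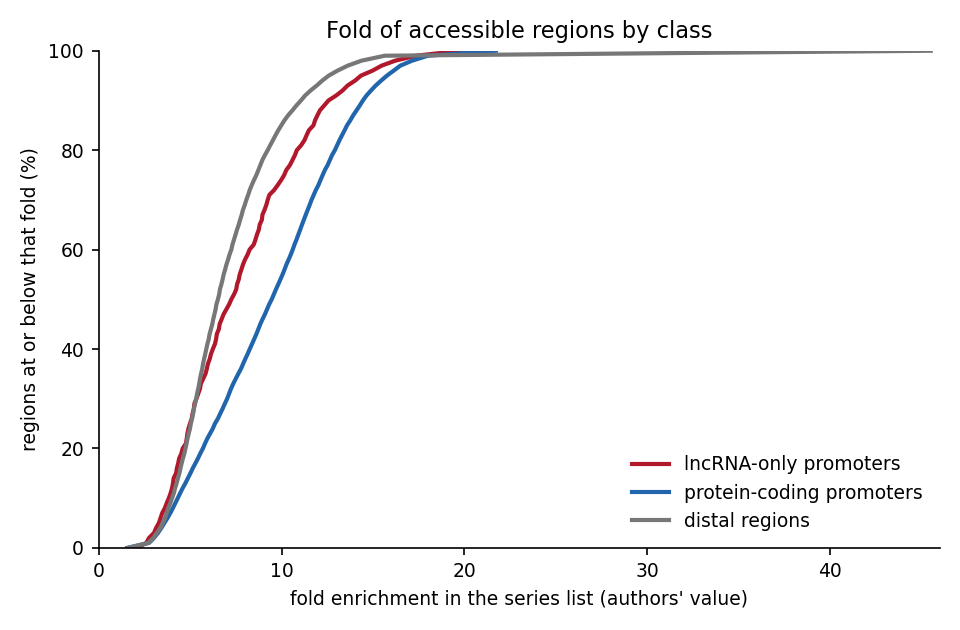
Cumulative share of regions (y axis, percent) at or below a fold in the series list (x axis, the authors' value) for lncRNA-only promoters, protein-coding promoters and distal regions. The medians are 7.26, 9.46 and 6.52 in that order; the highest lncRNA-only fold is 19.8, and the distal curve runs on to 45.5.

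The share of regions found in both replicates lay between those of protein-coding promoters and distal regions. Of the 526 regions, 324 overlapped a region in both replicates' thresholded lists (61.6%, 57.3 to 65.8), against 81.4% of protein-coding promoters (80.6 to 82.1) and 50.7% of distal regions (49.9 to 51.6), with 65.3% over all regions. Replicate 1's list alone held 57 more, replicate 2's list alone held 37, and 108 were in neither. In the less strict overlap lists both replicates held 474 (90.1%, 87.2 to 92.5), with 91.5% over all regions. The median fold was 9.05 for the 324 in both lists and 4.50 for the 108 in neither. Among the 324, the fold in replicate 1 over replicate 2 had a median log2 ratio of 0.01 and ran between -0.62 and 0.84; it was higher in replicate 1 at 180.

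CpG content separated the lncRNA-only promoters into groups with unlike folds. CpG-rich sequence was found at 150 of 526 (28.5%, exact 95% interval 24.7 to 32.6), against 72.2% of protein-coding promoters (71.4 to 73.1) and 3.89% of distal regions (3.55 to 4.25); the share over all regions was 36.7%. The 150 CpG-rich lncRNA promoters had a median fold of 9.28 (8.75 to 10.6), against 10.5 (10.4 to 10.6) at CpG-rich protein-coding promoters. The 376 CpG-poor ones had a median of 6.55 (6.21 to 6.96), against 6.54 (6.34 to 6.69) at CpG-poor protein-coding promoters. Within the CpG-poor class, the medians of lncRNA-only and protein-coding promoters thus differed by less than either interval. Among the 112 members in the upper 25% of all regions by fold, 55.4% were CpG-rich, against 15.5% of the 161 members in the lower 25%.

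By biotype the medians of fold and the CpG-rich shares also differed, but not all intervals were apart. Promoters of processed_transcript genes had a median fold of 8.56 (6.90 to 9.19) and were CpG-rich in 46.4% (36.2 to 56.8). For lincRNA promoters the values were 7.46 (6.74 to 7.91) and 26.9%. Antisense promoters had lower values than both, with a median fold of 6.20 (5.23 to 7.15) and 17.6% CpG-rich (11.3 to 25.7). Antisense promoters had a GATA match at 42.9% of summits (33.8 to 52.3), above the 25.8% (17.4 to 35.7) of processed_transcript promoters, with intervals that overlap.

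Most lncRNA genes had no such region. Of 9793 lncRNA genes, 479 had an lncRNA-only promoter region (4.89%, 4.47 to 5.34), and 1433 (14.6%) had a region within 1 kb of a start when regions shared with protein-coding promoters were also counted, against 45.5% of protein-coding genes. Among lncRNA genes with a start over 1 kb from every protein-coding start, 460 of 8064 had an lncRNA-only region (5.70%, 5.21 to 6.23). Among those whose every start lay within 1 kb of a protein-coding start, 858 of 1729 had a region (49.6%, 47.2 to 52.0). Of the genes with a start of their own, processed_transcript genes had an lncRNA-only region more often (88 of 541, 16.3%, 13.3 to 19.7) than lincRNA genes (271 of 5508, 4.92%, 4.36 to 5.52) or antisense genes (5.06% of 1998, 4.14 to 6.11).

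The strongest summit lay just upstream of the start, as at protein-coding genes, but with a wider spread. Its median position was -54 bp (quartiles -219 and 105) at lncRNA-only promoters, against -57 bp (quartiles -127 and 8) at protein-coding promoters. It lay upstream in 67.3% and over 500 bp away in 27.4% of lncRNA-only promoters, against 72.7% and 13.2% of protein-coding promoters. The 200 members with a summit within 100 bp of the start (38.0%) had a median fold of 8.68 (7.71 to 9.24) and were CpG-rich in 39.0%. The 144 members with a summit over 500 bp away had a median fold of 5.97 (5.23 to 6.57), were CpG-rich in 8.33% and had a GATA match in 43.8%.

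**Figure D3:**
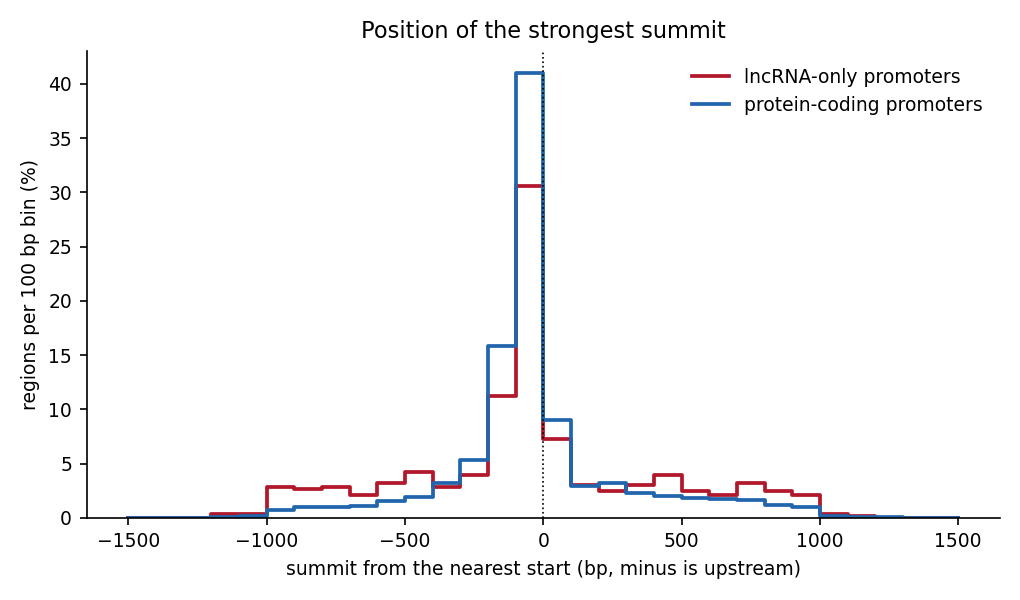
Position of the strongest summit relative to the nearest start (x axis, bp, minus is upstream) as the percent of regions in each bin of 100 bp (y axis), for lncRNA-only and protein-coding promoters. Both classes peak in the bin just upstream of the start, with 30.6% of lncRNA-only and 41.0% of protein-coding promoters.

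By place, 415 of the regions were intergenic, 90 lay in an intron and 21 in an exon of a protein-coding gene. The intergenic ones had a median fold of 7.51 (6.88 to 7.89), the intronic ones 6.49 (5.51 to 7.66). The median distance to the nearest protein-coding start was 15.5 kb. The 121 members with such a start at 1 to 5 kb had a median fold of 5.33 (4.90 to 5.93), below the 8.13 (7.57 to 8.96) of the 181 members with one at 20 to 100 kb. Their median −log10 p values were 47.4 and 49.9 in that order, so the difference in fold had no counterpart of like size in p.

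Consensus matches within 100 bp of the summit gave shares for the lncRNA-only promoters that lay between those of protein-coding promoters and distal regions for GATA, the GATA pair, KLF, NFY, CTCF, NFE2 and RUNX. For NFE2 and RUNX the exact 95% interval overlapped that of another class. A match is a string of letters and no measurement of binding. GATA matches (WGATAR) were found at 169 of 526 summits (32.1%, 28.2 to 36.3), against 15.4% of protein-coding promoters and 49.8% of distal regions, with 33.0% over all regions. In windows 1 kb away that overlapped no region, 27.6% held one beside lncRNA-only promoters, which is just below that interval. The margin was not kept in every setting. With promoters taken as 500 bp to each side of a start, 25.3% of summits held a match (21.4 to 29.6), and the intervals for replicate 2's list alone and for the 5′ end of the gene alone also reached below 27.6%. The GATA pair, a CTG followed at a short spacing by a GATA match and known as the composite site of the TAL1 and GATA1 complex, was found at 33 (6.27%, 4.36 to 8.70), against 2.99% and 15.8% in those classes, 9.44% over all regions and 1.88% of the windows beside lncRNA-only promoters. Every GATA pair counts among the GATA matches too.

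GATA matches were divided by CpG content. They were found at 7.33% of CpG-rich lncRNA promoters (3.72 to 12.7) and at 42.0% of CpG-poor ones (37.0 to 47.2). The shares were 8.53% of CpG-rich and 33.3% of CpG-poor protein-coding promoters, and 11.3% and 51.4% of distal regions, so all 3 classes had this split. All 33 GATA pairs were in CpG-poor members. The pair was likewise at 0.573% of CpG-rich and 9.3% of CpG-poor protein-coding promoters, and at 1.5% and 16.4% of distal regions. The 33 members with a pair had a median fold of 8.77 (6.39 to 10.7) and were in both replicate lists in 81.8%. For the other 343 CpG-poor members the values were 6.44 (6.06 to 6.83) and 52.2%. The strongest was Gm16982 on chromosome 7 (chr7:141613789-141615046), with a fold of 12.7 (12.8 in replicate 1, 11.5 in replicate 2). Its summit lay 727 bp upstream of the Gm16982 start, and its midpoint lay in an intron of the coding gene Ap2a2. A predicted RefSeq start of Ap2a2 lies 553 bp from that midpoint. The pair at the Gm16982 summit, which reads CTG then GATA on the strand opposite to the one printed, is in capitals (chr7:141614374-141614574, minus strand).
Gm16982: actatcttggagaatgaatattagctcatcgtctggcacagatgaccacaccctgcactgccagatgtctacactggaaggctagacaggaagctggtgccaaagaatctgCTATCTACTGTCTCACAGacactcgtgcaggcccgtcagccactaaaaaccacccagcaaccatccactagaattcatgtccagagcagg
The KLF consensus takes in CACCC boxes, as bound by KLF1, and also strings with G in place of that A, such as CCCCGCCC. It was found at 27.4% of summits (23.6 to 31.4), against 40.9% of protein-coding promoters and 2284 of 12040 distal regions, with 29.4% over all regions and 6.63% of the windows beside lncRNA-only promoters. Snhg15 has 2 KLF matches, both of the form with G, together with 1 cyclic-AMP response element (TGACGTCA), all in capitals below (chr11:6528677-6528877, minus strand).
Snhg15: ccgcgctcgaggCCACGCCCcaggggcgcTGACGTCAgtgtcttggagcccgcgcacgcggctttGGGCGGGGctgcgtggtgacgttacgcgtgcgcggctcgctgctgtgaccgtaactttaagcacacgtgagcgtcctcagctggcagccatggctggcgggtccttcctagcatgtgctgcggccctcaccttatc
The NFY consensus was found at 13.1% (10.4 to 16.3) of lncRNA-only promoters, against 21.4% of protein-coding promoters and 7.52% of distal regions. Its share was 14.1% over all regions and 6.85% of the windows beside lncRNA-only promoters. Among CpG-rich members, the 31 with an NFY match had a median fold of 11.7 (9.60 to 12.8) and all were in both replicate lists. The 119 without one had a median of 8.89 (8.16 to 9.77), and 73.1% of them were in both lists.

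CTCF, the factor that anchors chromatin loops, had a consensus match at 40 lncRNA-only promoters (7.60%, 5.49 to 10.2), against 1.94% of protein-coding promoters (1.69 to 2.21) and 11.6% of distal regions, with 6.96% over all regions and 0.0% of the windows beside lncRNA-only promoters. Of the 40 members, 47.5% were in both replicate lists, against 62.8% of the other 486. The strongest was 4632415L05Rik on chromosome 3, with a fold of 13.9 (12.6 in replicate 1, 12.8 in replicate 2). Its match is in capitals (chr3:19894678-19894878, plus strand).
4632415L05Rik: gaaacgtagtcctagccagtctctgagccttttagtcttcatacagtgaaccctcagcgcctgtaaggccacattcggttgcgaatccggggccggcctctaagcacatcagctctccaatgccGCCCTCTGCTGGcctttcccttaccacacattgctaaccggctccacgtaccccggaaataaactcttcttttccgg
The NFE2 consensus was found at 2.09% of lncRNA-only promoters (1.05 to 3.71), 0.370% of protein-coding promoters and 2.57% of distal regions, and over all regions at 1.54%. RUNX matches (TGYGGTY) were found at 9.89% (7.47 to 12.8), 8.08% and 10.9% in the same order, and at 9.54% over all regions. In the windows beside lncRNA-only promoters the RUNX share was 8.95%, inside the interval for their summits. The remaining consensus sequences were rare. ETS matches (ACCGGAAGT) were found at 1.14% of lncRNA-only promoters, 1.96% of protein-coding promoters and 0.183% of distal regions, with 1.03% over all regions. Cyclic-AMP response elements were at 1.33%, 3.21% and 0.482%, with 1.78% over all regions, and NRF1 matches at 0.951%, 2.17% and 0.166%, with 1.12%. YY1 matches were at 0 of 526 lncRNA-only promoters (exact upper limit 0.699%), 1.28% of protein-coding promoters and 0.0415% of distal regions, with 0.623% over all regions. None of the 11 consensus sequences searched was found at 159 of the 526 summits.

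**Figure D4:**
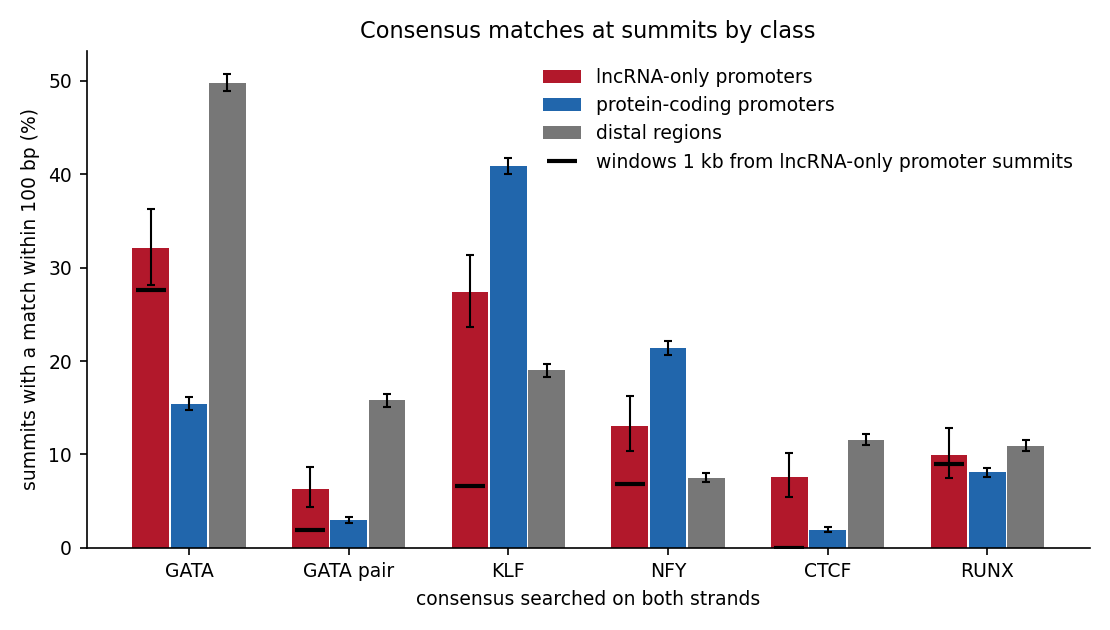
Percent of summits with a consensus match within 100 bp (y axis) for 6 consensus sequences (x axis), with bars for lncRNA-only promoters, protein-coding promoters and distal regions, exact 95% intervals as error bars and black dashes for windows 1 kb from lncRNA-only promoter summits. GATA matches are at 32.1%, 15.4% and 49.8% in that order of classes, and NFY matches at 13.1%, 21.4% and 7.52%.

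Most of the small nucleolar RNA hosts listed had an accessible promoter. Of 16 host genes with an lncRNA biotype in the annotation, 8 had an lncRNA-only promoter region, 6 had a region that lay within 1 kb of a protein-coding start, and 2 had none (Snhg14 and Snhg18). Over all lncRNA genes, 4.89% had an lncRNA-only region and 14.6% any region. All 8 were CpG-rich and in both replicate lists, with a median fold of 12.9, against 9.28 over CpG-rich members and 7.57 over all regions. After Dancr and Snhg15 stood Snhg6 (fold 14.6 in the series list, 14.4 in replicate 1, 11.9 in replicate 2), Snhg12 (14.3 in the series list, 12.9 in replicate 1, 14.2 in replicate 2), Snhg5 (11.5), Snhg17 (9.25), Snhg8 (8.96) and Snhg20 (7.13). The hosts on the protein-coding side were Snhg9 (10.9, 0.14 kb from the Rps2 start), Snhg1 (9.96), Zfas1 (9.88), Snhg3 (8.42), Gas5 (8.05) and Snhg10, the lowest. Gas5, a growth-arrest RNA, is thus no member, because a Zbtb37 start lies 0.11 kb from its region. Snhg11 is typed as protein-coding in the annotation, and Snhg4, Snhg7 and Snhg16 are not among its symbols.

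**Figure D5:**
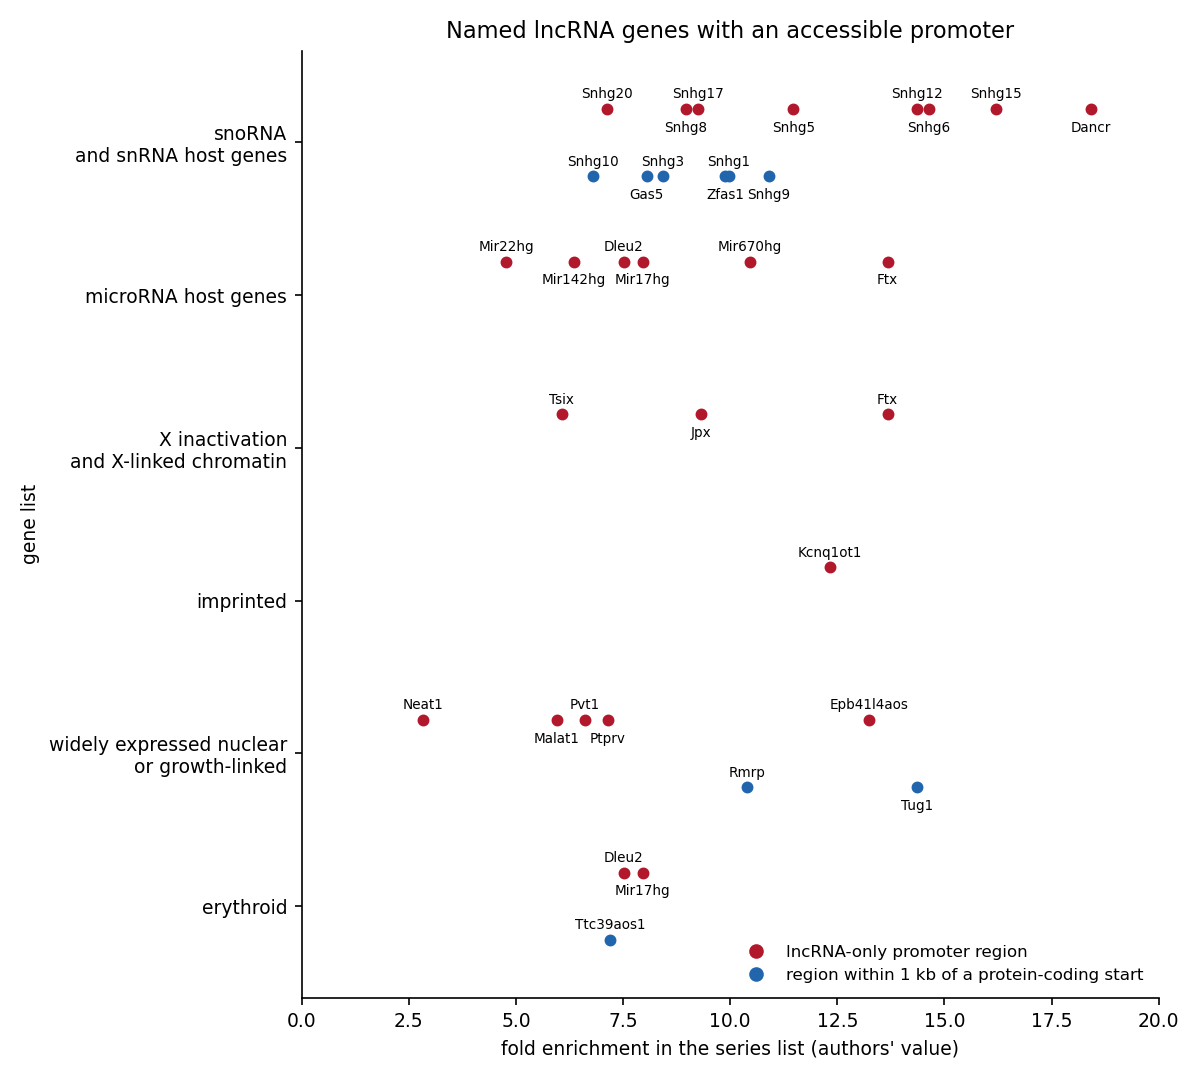
Fold enrichment in the series list (x axis, the authors' value) of listed lncRNA genes with an accessible promoter, by gene list (rows), in red where the region is an lncRNA-only promoter region and in blue where it lies within 1 kb of a protein-coding start. The small nucleolar RNA hosts reach the highest fold, 18.4 at Dancr, and Neat1 has the lowest, 2.82.

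MicroRNA hosts had an lncRNA-only region in 6 of 13 annotated cases, against 4.89% of all lncRNA genes, and none in the other 7. Mir17hg, which encodes the microRNA cluster that restrains apoptosis in blood progenitors, had a fold of 7.96 at chr14:115041848-115042637 (7.96 in replicate 1, 7.17 in replicate 2). Its window is the most GC-rich of those printed (chr14:115042167-115042367, plus strand, 73.1% G and C) and has 1 GATA match, in capitals, near its 3′ end.
Mir17hg: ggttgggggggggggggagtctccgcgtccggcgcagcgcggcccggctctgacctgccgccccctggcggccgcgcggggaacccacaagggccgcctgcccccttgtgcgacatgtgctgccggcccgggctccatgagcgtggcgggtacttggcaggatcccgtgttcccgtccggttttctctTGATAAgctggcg
Dleu2, the host of miR-15a and miR-16-1, had 4 regions with folds between 3.47 and 7.52, of which 1 was in both replicate lists. Mir142hg, the host of a microRNA found in all blood lineages, had 2 regions, the stronger at 6.35 (6.21 in replicate 1, 6.32 in replicate 2). Mir22hg had a fold of 4.77 at 1.11 kb from the Tlcd2 start. Mir670hg had 10.5 in the series list but was missing from replicate 1's thresholded list, where the overlap list gave 9.82. No region was found at Mir155hg, Mir99ahg, Mir9-3hg, Mir124a-1hg, Mir124-2hg, H19 or Mirg. Mir100hg and Mirlet7bhg are not among the annotation's symbols.

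In the X inactivation centre of these male cells, both activators of Xist listed had a region and Xist had none. Ftx, an activator of Xist that also hosts microRNAs, had 4 regions, the strongest at 13.7 (12.7 in replicate 1, 13.1 in replicate 2), and the weakest at 4.08. Jpx, another activator, had 9.31 (7.69 in replicate 1, 9.18 in replicate 2). Tsix, the antisense repressor of Xist, had 6.07 in the series list but was in neither replicate's thresholded list; the overlap lists gave 4.51 in replicate 1 and 6.41 in replicate 2. Firre, a nuclear organizer on the X chromosome, had a region in the series overlap list alone (fold 3.39, −log10 p 6.4).

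Of the imprinted genes, Kcnq1ot1, the paternally expressed antisense RNA that silences its neighbours, was the only one of 7 annotated with an lncRNA-only region in the series list. With 4.89% over all lncRNA genes, a list this short shows nothing particular to imprinted genes. Its region (chr7:143295617-143297045) had a fold of 12.3 (11.6 in replicate 1, 11.8 in replicate 2). Capitals mark 2 GATA matches and 1 NFY match near its summit (chr7:143296504-143296704, minus strand).
Kcnq1ot1: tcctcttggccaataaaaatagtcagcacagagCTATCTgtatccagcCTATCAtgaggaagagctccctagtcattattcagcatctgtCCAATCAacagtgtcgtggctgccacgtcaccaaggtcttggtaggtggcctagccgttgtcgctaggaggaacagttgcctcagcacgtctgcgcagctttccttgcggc
H19, Airn, Meg3, Rian and Mirg had no region, and Nespas had one in the overlap list alone (fold 5.04). Peg13 had a region with a fold of 6.73, but its biotype, sense_intronic, is outside the rule.

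On the list headed widely expressed nuclear or growth-linked RNAs, 5 of 9 annotated had an lncRNA-only region, against 4.89% of all lncRNA genes. The heading is no result, since expression was not measured. Epb41l4aos had the highest fold (13.2 in the series list, 11.4 in replicate 1, 13.6 in replicate 2), followed by Ptprv (7.14), Pvt1, the neighbour of Myc (6.61, not in replicate 1's thresholded list), and Malat1, a nuclear speckle RNA (5.96 in the series list, 6.25 in replicate 1, 5.42 in replicate 2). Neat1, the scaffold of paraspeckles, had 3 regions with folds of 2.82 and below, although the strongest had a −log10 p of 35.4. Tug1 (14.4, Morc2a start at 0.11 kb) and Rmrp (10.4, Ccdc107 start at 0.04 kb) had regions on the protein-coding side, and Lncpint and Trp53cor1 had none. Chaserr and Norad are not among the annotation's symbols. None of the 18 lncRNAs of developmental and other lineages, Hotair, Hotairm1, Hottip, Hoxa11os, Halr1, Sox2ot, Six3os1, Dlx6os1, Rmst, Pantr1, Fendrr, Hand2os1, Emx2os, Otx2os1, Pax6os1, Wt1os, Lhx1os and Miat, had a region within 1 kb of a start. The share over all lncRNA genes is 14.6%, so a count of 0 is near the background.

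Of the listed lncRNAs with a known role in red cells, Ttc39aos1, known as lincRNA-EPS for its protection of erythroid progenitors from apoptosis, had a fold of 7.19 but lay 0.02 kb from a Ttc39a start. The other listed members, Dleu2 and Mir17hg, are given above. Redrum, known from red cell maturation, is on none of the lists and was named after its values were seen. Its region had a fold of 10.3 (9.13 in replicate 1, 10.2 in replicate 2), with a GATA pair and a KLF match at the summit. By neighbourhood, 6 lncRNA-only regions (1.14%, 0.42 to 2.47) had the start of an erythroid gene as their nearest protein-coding start, against 1.45% of distal regions (1.24 to 1.67) and 1.11% of all regions, so the share was near the background. Gm40608, 28.0 kb from the start of the progenitor factor Myb, had the highest fold of these, 10.2 (9.35 in replicate 1, 9.76 in replicate 2). The window at its summit (chr10:21189069-21189269, minus strand) is CpG-poor and has 1 GATA match, in capitals, near its 3′ end.
Gm40608: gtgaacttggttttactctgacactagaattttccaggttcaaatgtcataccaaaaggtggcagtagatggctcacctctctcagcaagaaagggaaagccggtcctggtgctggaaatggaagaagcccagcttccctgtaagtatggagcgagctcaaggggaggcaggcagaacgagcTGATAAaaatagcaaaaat
A second region of Gm40608 had a fold of 4.12 and was in neither replicate's list. AC163635.1, whose nearest coding start is that of the survival kinase gene Pim1, had a fold of 5.02. Sox6os, antisense within Sox6, which encodes a silencer of embryonic globin, had 4.84 (3.40 in replicate 1, 5.24 in replicate 2). Bloodlinc, a lncRNA known from red cell differentiation, lies near Slc4a1, the band 3 anion exchanger. It had 2 adjacent regions with folds of 3.15 and 2.11, and the second was the lowest of all 526. Replicate 1's list joined them in 1 region with a fold of 3.15. Its −log10 p values were 33.7 and 11.7.

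Near-identical sequence went beyond chromosome 17. Comparing the 150 bp to each side of every member's summit with all others, 20 members matched another over at least 200 bases at 80% identity or more, in 18 pairs. E430024I08Rik (16.4), Gm47469 (9.28), Gm47467 (8.39) and Gm46430 (7.67) form a group on chromosome 13, whose matches had 87.2% to 91.1% identity with E430024I08Rik. Gm20939 on chromosome 17 (14.2) and Gm32856 on chromosome 8 (12.5) were 95.5% identical over 287 bases, AI506816 (13.2) and 2700038G22Rik (10.6) on chromosome 5 were 96.6% identical over 232 bases, and 9430037G07Rik (12.8) and 9330159M07Rik (12.1) on chromosome 9 were 95.3% identical over 279 bases. RefSeq counts Gm46430, Gm20939 and Gm32856 as curated protein-coding genes under the same symbols. A Zfp gene, which encodes a zinc finger protein, was nearest to 6 of the 20. Over all members a Zfp gene was nearest to 25 (4.75%), against 1.25% of distal regions and 1.85% of all regions, and these 25 had a median fold of 8.89, against 7.14 for the other members. Of the 25, 11 were CpG-rich, against 28.5% of all members, and the part of CpG content in that difference was not tested.

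A second annotation bears on the label. RefSeq of GRCm38.p6 places the start of a protein-coding transcript within 1 kb of the midpoint of 46 members (8.75%), by curated transcripts at 25 and by predicted ones only at 21. Among them are Gm5165 (213 bp) and Gm6712 (183 bp), ranks 2 and 3, which RefSeq counts as protein-coding genes under the same symbols, and Gm13274, whose region lies 137 bp from a start of the curated coding gene Gm13286. Ptpmt1, Zswim6 (11.1), Tctn2 (8.96), Spata5l1 (8.59) and Ifi30 (4.76) carry a non-coding biotype in the GENCODE release used but have curated coding transcripts in RefSeq. Gm12063 lies 182 bp from a predicted start of Bcl11a, the fetal globin repressor, with a fold of 4.80, and Gm43904 lies 74 bp from a predicted start of Gp9. The 480 members with no such start had a median fold of 7.30. The rule uses GENCODE alone, so all 526 are kept here, and the name lncRNA-only holds for that annotation.

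Just inside the limit of 1 kb to a protein-coding start were Gm49463 (1010 bp from Cyb5r3, fold 3.14), 4930578M07Rik (1035 bp from Nutf2, 3.31) and Gm28857 (1059 bp, 7.41). Just outside were Notumos (998 bp from Notum, 4.39), Gm47950 (990 bp from Ubp1, 5.24) and 5730414N17Rik (982 bp from Kmt2d, 8.19). At the limit of 1 kb to a lncRNA start, the nearest inside were A930001C03Rik (996 bp, fold 5.21), Gm10655 (988 bp, 5.85) and Gm48765 (988 bp, 15.8), and the nearest outside were D430020J02Rik (1006 bp, 3.07), Foxd2os (1006 bp, 5.93) and Gm11527 (1008 bp, 3.81).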

How the data were processed

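ATAC-seq of mouse CFU-E cells was analysed from the deposited peak lists, called on mm10 per the labels. The authors gave each peak a fold enrichment (a ratio) and p-values as −log10 p, per the deposited narrowPeak columns; lists thresholded on IDR, the irreproducible discovery rate between peak sets, and less strict overlap lists were deposited for each replicate and for the series. Which aligner and caller were used, and how Tn5 offsets and duplicates were treated, is not stated in the labels or listing, and read depth is unknown. Matched records of the ranked lists were compared by −log10 p.

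Overlapping or touching records were merged and regions classed by midpoint against GENCODE M21. No record passed a chromosome end of GRCm38.p6, from which sequences were read. Consensus matches on both strands were counted within 100 bp of the summit of the strongest record. Shares have exact Clopper-Pearson and medians order-statistic 95% intervals. Members were compared by blastn 2.17.0, with Python 3.11.15, pandas 2.3.3, SciPy 1.17.1 and samtools 1.23.1 otherwise. The functions were tested on simulated data.

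Members and lists were chosen with earlier results of these data known. Named are the 20 strongest members in both replicate lists, the listed genes, the 5 highest by p and 5 widest, the nearest to the limits, and those beside erythroid genes. Others were named after their values were seen. No test was run, since 1 group of 2 libraries allows none.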

Additional observations from a re-analysis of the deposited data

How the results depend on the processing

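The 8 summary values were recomputed under 13 alternatives, which gave 90 values; 64 stayed within the interval of the value reported (or within 1.5 times of a count), and 26 did not. The overlap list gave 853 regions, a median fold of 5.03, 38.0% in both replicate lists, 22.3% CpG-rich and 7.41% of lncRNA genes with a region. The upper 50% of regions by fold gave 247 regions, a median fold of 10.3, 89.1% in both lists, 40.9% CpG-rich, 32.8% with a KLF match and 2.58% of genes, by construction from stronger regions only. With 500 bp in place of 1 kb, 39.0% were CpG-rich, 25.3% had a GATA match, 31.6% a KLF match and 4.45% of genes had a region. The 5′ end of the gene alone gave 4.38% of genes and further biotypes 4.22%. Motif windows of 50 bp gave 21.1% with a GATA match and 19.6% with a KLF match, and a CpG window of 100 bp gave 32.7% CpG-rich. Where the cause of a change is not named, it was not tested. The lists of single replicates gave 372 to 389 regions, medians of 7.92 to 8.11, 33.1% to 33.2% CpG-rich, 32.3% to 34.2% with a GATA match, 28.3% to 29.3% with a KLF match, 6.18% to 6.43% with a CTCF match and 3.54% to 3.71% of genes. Leaving out RefSeq coding starts, an alternative chosen after seeing the data, gave 480 regions, and its other 7 values stayed within their intervals. The share with a CTCF match stayed within its interval under all 12 alternatives run for it. No paired analysis was possible because there is 1 group. Read depth is not in peak lists, so a promoter with no region was not detected at this depth and is not shown to be closed.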

Other observations

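Members were spread over all chromosomes except Y and made up 526 of the 24394 regions. Chromosome 5 had 45 (2.82% of its 1594 regions) and chromosome 11 had 42 (1.93% of 2176). The highest shares were 3.01% on X (18 of 599) and 2.96% on chromosome 19 (26 of 878). Apart from Y, the lowest was 1.26% on chromosome 16 (9 of 716). Of the 526, 25 lay at the starts of 2 or more lncRNA genes. The 23 members with starts on both strands were CpG-rich in 56.5%, against 27.2% of the 503 with starts on 1 strand. In all, 57 lncRNA genes had 2 or more member regions. Those with 4 were Ftx (folds 4.08 to 13.7), Gm46404 (3.82 to 8.16), Dleu2 (3.47 to 7.52), E130102H24Rik (2.99 to 4.32) and Frmd8os, which shares regions with Neat1 (2.32 to 3.64).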
